A study of Rattus norvegicus with 6 samples.

Results

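The transcripts of 2 secreted growth factors, Fgf2 and Gdnf, were followed in smooth muscle cells of rat vessels, which give the wall its tone, with and without platelet-derived growth factor BB (PDGF-BB). Each was read by 1 linear transcript probe, A_44_P212850 for Fgf2 and A_44_P500961 for Gdnf, printed as 10 spots on every array. These are 2 of the 82 linear transcript probes and of the 14227 non-control probes on a microarray otherwise made of 14145 circular RNA probes with 1 spot each. Both were picked because their signal lay higher in PDGF-BB cells on these same arrays, so the difference between the groups is given as a description, with no test.

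The study hybridised 6 single-colour (Cy3) arrays, 3 with RNA of control cells and 3 with RNA of cells given PDGF-BB at 20 ng/ml for 24 h. Both groups grew in DMEM with serum at 10%, at 37 °C and 5% CO2. The labels name no vehicle for the controls and no strain, vessel or passage, and do not say whether the replicates were separate cultures, so the spread between arrays may be technical. RNA was labelled with random primers; whether linear RNA was removed before labelling is not given in the sources used here.

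PDGF-BB acts on receptor tyrosine kinases of smooth muscle and is known for moving these cells from a contractile to a dividing, migrating state. Fgf2 encodes basic fibroblast growth factor, which lacks a classical secretion signal, binds heparan sulphate and FGF receptors, and is a mitogen for vascular smooth muscle. Gdnf encodes glial cell line-derived neurotrophic factor, a distant member of the TGF-beta superfamily that binds the co-receptor GFRA1 and signals through the RET kinase. It is best known for kidney and enteric nervous system development, and the smooth muscle of the gut is one of its sources.

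Both genes lie on rat chromosome 2. The Fgf2 probe carries the accession NM_019305 (gene ID 54250), the only Fgf2 transcript in the RefSeq table of assembly GRCr8. The Gdnf probe carries NM_019139 (gene ID 25453), 1 of 4 Gdnf transcripts in that table. The table places the protein-coding gene Nudt6 across part of Fgf2, and the lncRNA gene LOC134485851 within the span of Gdnf. The probes' own bases were not used here, so the exon or UTR they sit in is not stated, and isoforms or overlapping transcripts were not told apart.

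The 250 bases upstream of each RefSeq start (GRCr8, plus strand) are printed because both transcripts read higher in the PDGF-BB arrays. They span chr2:122164204-122164453 for Fgf2 and chr2:58621077-58621326 for Gdnf, and capitals mark the motifs found. The windows were taken by gene symbol. Which of the 4 Gdnf transcripts has the start used, and whether it is the probe's, was not checked.
Fgf2: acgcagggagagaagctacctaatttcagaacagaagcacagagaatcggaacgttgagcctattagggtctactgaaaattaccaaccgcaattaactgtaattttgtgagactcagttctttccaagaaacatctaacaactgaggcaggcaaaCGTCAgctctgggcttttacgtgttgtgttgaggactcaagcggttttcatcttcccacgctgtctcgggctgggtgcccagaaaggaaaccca
Gdnf: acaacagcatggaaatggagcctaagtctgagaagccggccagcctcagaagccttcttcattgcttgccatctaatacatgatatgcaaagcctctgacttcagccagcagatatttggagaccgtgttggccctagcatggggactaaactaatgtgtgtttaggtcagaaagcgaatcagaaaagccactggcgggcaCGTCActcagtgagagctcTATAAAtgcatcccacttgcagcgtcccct
Both strands were searched for the AP-1 site TGANTCA, the CRE half-site TGACG, the EGR1 site GCGNGGGCG, the TATA box TATAAA, the GC box GGGCGG and the CArG box by its name. Each window held 1 CRE half-site, read here as its reverse complement CGTCA, at 94 to 90 bases before the start in Fgf2 and 49 to 45 in Gdnf. A CRE half-site was present in 18.2% of 33465 rat windows of the same length. The Gdnf window also held a TATA box at 30 to 25 bases before the start, a motif found in 12.9% of windows, and no motif overlapped another. The other motifs searched had no match in either window, and occurred in 6.34% (AP-1), 4.29% (EGR1), 30.5% (GC box) and 1.5% (CArG box) of windows. A match of letters is a description and shows no binding.

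The arrays differed in brightness. The 75th percentile of the processed signal over non-control probes was 93.7, 99.4 and 113 on control arrays 1 to 3, and 143, 100.2 and 72.7 on PDGF-BB arrays 1 to 3. PDGF-BB 1 was thus the brightest array and PDGF-BB 3 the dimmest. Levels below are log2 of the processed signal (background-subtracted by the scanner software) minus log2 of that percentile, averaged over the spots of the probe not marked as outliers. The median signal of the 77 negative control spots was 16 on 4 arrays, 20.0 on control 2 and 18.5 on PDGF-BB 1, and no negative control spot was well above background. None of the non-control spots was saturated.

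Fgf2 signal was faint on every array and lay higher in PDGF-BB cells. The mean processed signal (geometric, over the spots used) was 6.23, 3.79 and 5.76 on control arrays 1 to 3, and 17.2, 8.62 and 7.36 on PDGF-BB arrays 1 to 3. PDGF-BB 1 stood far above the other arrays, and control 2 was lowest. On the scaled log2 level the controls read -3.91, -4.71 and -4.29, and the PDGF-BB arrays -3.06, -3.54 and -3.30. Averaged by group these gave -4.30 ± 0.40 and -3.30 ± 0.24 (SD, n = 3 each), a difference of 1.00 (SE 0.24 from the limma fit), or 2.00-fold. The groups did not overlap on either scale, and on the scaled one the gap from the highest control to the lowest PDGF-BB array was 0.37. Such a split with PDGF-BB higher was seen after scaling at 19.1% of the 47 linear probes tested.

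Background came close to the Fgf2 spots. Their median pixel signal had a median of 22, 24 and 23 on control arrays 1 to 3 and of 36, 25 and 24 on PDGF-BB arrays 1 to 3, which is 1.38, 1.20 and 1.44 times the negative control median in controls and 1.95, 1.56 and 1.50 times in PDGF-BB arrays. PDGF-BB 1 was the clear exception, and control 2 was nearest to background. The scanner software marked 9, 1 and 9 of 10 spots as well above background on control arrays 1 to 3, and 10, 10 and 9 on PDGF-BB arrays 1 to 3. In all, 19 of 30 control spots and 29 of 30 PDGF-BB spots carried the mark. Control 2 held 9 of the 11 control spots without it. Every one of the 60 Fgf2 spots passed the weaker mark for a positive and significant signal, and in control 2 only 7 of 10 spots exceeded the 95th percentile of its negative controls, against 10 of 10 on each other array.

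The Fgf2 spots also scattered within an array. Their SD on the log2 scale was 0.30, 0.53 and 0.14 on control arrays 1 to 3, and 0.17, 0.24 and 0.29 on PDGF-BB arrays 1 to 3. Control 2, the faintest array for this probe, was the most scattered. The pooled spot SD of 0.31 was close to the SD of 0.33 between arrays of one group. Single Fgf2 spots overlapped between groups although the array means did not. Of the 10 spots used on each PDGF-BB array, 10, 4 and 7 (PDGF-BB 1, 2 and 3) exceeded the highest control spot, and 5 of 10 spots of control 1 exceeded the lowest PDGF-BB spot. Taken by printed position, which is the same on each array, the PDGF-BB mean was higher at 10 of 10 positions, by 0.69 to 1.25 with a median of 1.05. The positions share the same RNA and array and are not replicates.

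**Figure D1:**
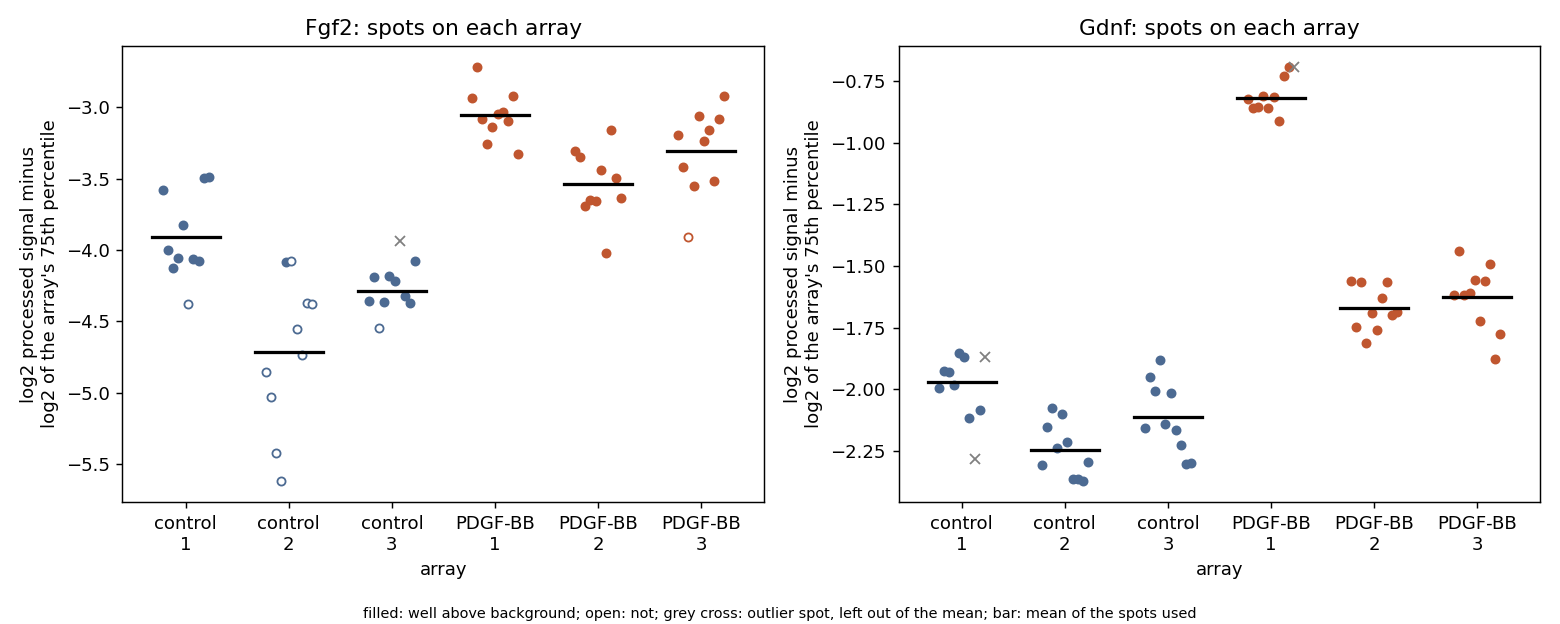
Scaled log2 processed signal of each spot of Fgf2 (left) and Gdnf (right) on the 6 arrays, with controls in blue and PDGF-BB in orange, filled where a spot was well above background and open where not, outlier spots as grey crosses and the mean of the spots used as a bar. The Fgf2 bars run from -4.71 to -3.91 in controls and from -3.54 to -3.06 in PDGF-BB arrays; the Gdnf bars run from -2.25 to -1.97 and from -1.67 to -0.82, with PDGF-BB 1 well apart.

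Gdnf was measured clear of background on all 6 arrays, and lay higher in PDGF-BB cells after scaling, most of all on 1 array. The mean processed signal was 23.9, 20.9 and 26.0 on control arrays 1 to 3, and 81.3, 31.5 and 23.6 on PDGF-BB arrays 1 to 3. Before scaling, then, PDGF-BB 1 was far brighter than any other array for this probe, while PDGF-BB 3 lay inside the control range and below controls 1 and 3. After scaling the controls read -1.97, -2.25 and -2.11, and the PDGF-BB arrays -0.82, -1.67 and -1.63.

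On that scaled log2 level the Gdnf group means were -2.11 ± 0.14 in control and -1.37 ± 0.48 in PDGF-BB (SD, n = 3 each), a difference of 0.74 (SE 0.25 from the limma fit), or 1.67-fold. The groups did not overlap, with a gap of 0.30 from the highest control to the lowest PDGF-BB array. Without PDGF-BB 1 the difference was 0.46. PDGF-BB 2 and 3 lay close together and PDGF-BB 1 apart from them.

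All 30 control and 30 PDGF-BB spots of Gdnf were well above background. Their median pixel signal was 2.47, 2.13 and 2.72 times the negative control median on control arrays 1 to 3, and 5.57, 3.03 and 2.56 times on PDGF-BB arrays 1 to 3. The log2 spot SD was small, from 0.069 in PDGF-BB 1 to 0.15 in control 3. Pooled over the groups, the SD between arrays was 0.35 against a pooled spot SD of 0.11. That gap came from the PDGF-BB arrays, which had an SD of 0.48 with PDGF-BB 1 apart. The control arrays had an SD of 0.14, close to their mean spot SD of 0.12. Of the spots used, 9 of 9, 10 of 10 and 9 of 10 (PDGF-BB 1, 2 and 3) exceeded the highest control spot, and 2 of 8 spots of control 1 exceeded the lowest PDGF-BB spot. At the 10 printed positions the PDGF-BB mean was higher each time, by 0.57 to 1.03 with a median of 0.66.

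**Figure D2:**
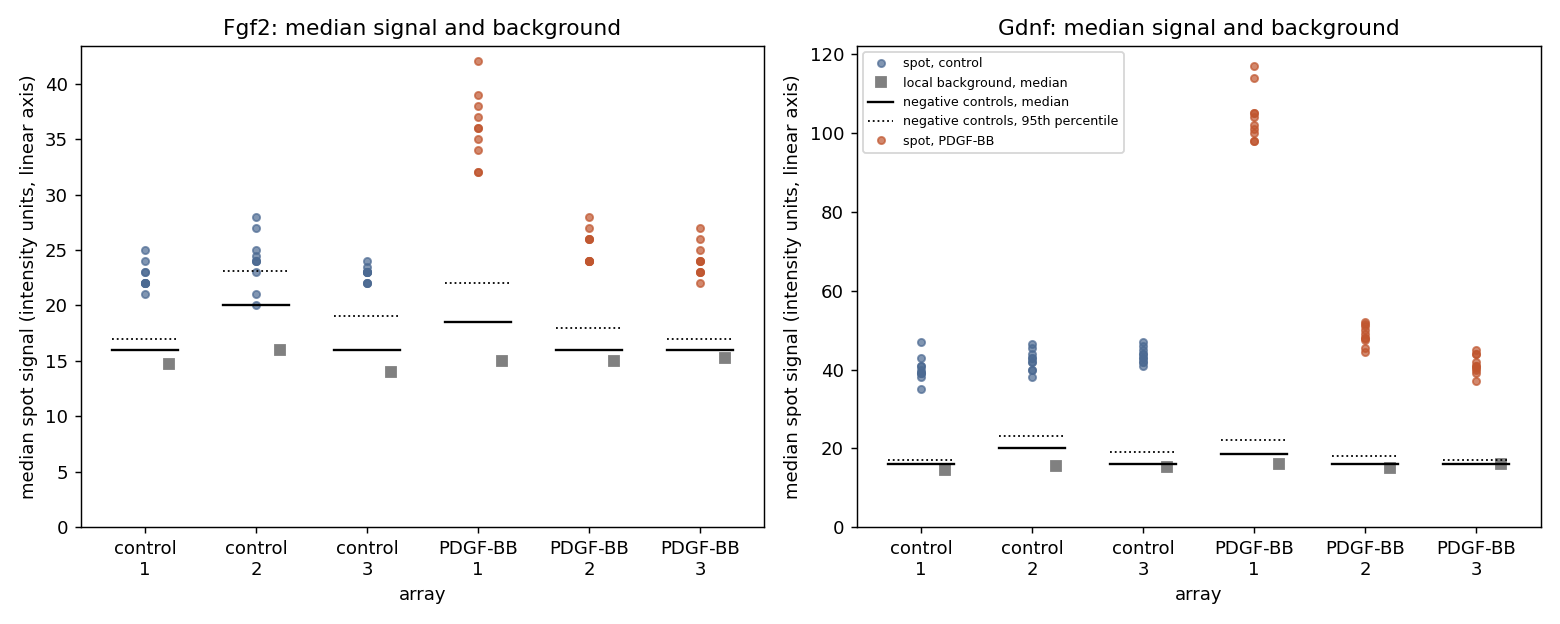
Median pixel signal of each Fgf2 (left) and Gdnf (right) spot on a linear axis from 0, with the median local background (grey squares) and the median and 95th percentile of the negative controls (solid and dotted lines) of each array. Fgf2 spots of control 2, from 20.0 to 28.0, straddle the dotted line at 23.1, and Gdnf spots lie between 35.0 and 52.0 on every array but PDGF-BB 1, where they reach 117.

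Background and spot spread were compared between the groups with exact two-sided permutation tests. The local background and the negative controls are not the signal on which the probes were picked. The spot SD was computed from that same processed signal, so it is not independent of the choice. With 3 arrays against 3 the smallest p such a test allows is 0.1. The mean local background around the Fgf2 spots was 15.0 ± 1.0 in control and 15.3 ± 0.35 in PDGF-BB arrays (SD, n = 3 each; exact permutation p = 0.8). Around the Gdnf spots it was 15.1 ± 0.60 and 15.5 ± 0.31 (exact permutation p = 0.4). The negative control median was 17.3 ± 2.3 and 16.8 ± 1.4 (exact permutation p = 1). The spot SD was 0.32 ± 0.19 and 0.24 ± 0.060 for Fgf2 (exact permutation p = 0.6), and 0.12 ± 0.026 and 0.096 ± 0.032 for Gdnf (exact permutation p = 0.4). After Benjamini-Hochberg adjustment over these 5 comparisons each p was 1, and no group difference in background or spot spread was resolved at this number of arrays.

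The 2 growth factor probes were read beside the other linear probes. Of the 82 linear probes, 47 were well above background (at least 0.5 of their spots) on at least 3 of 6 arrays and were fitted with limma together with 12313 circRNA probes. Fgf2 and Gdnf had the highest and second highest differences of the 47. Every PDGF-BB array exceeded every control at 9 of the 47 linear probes (19.1%), both members among them, and at 1155 circRNA probes (9.38%). The linear probes had a median difference of 0.19 and 36 of 47 were above 0, whereas the circRNA probes had a median of 0.016. At a Benjamini-Hochberg adjusted p under 0.05 over all 12360 probes, limma called 0 of the 47 (0%), with 6 (12.8%) at an unadjusted p under 0.05, and called 2 probes (0.0162%) in all. Because the pair was chosen from this contrast, its place among the 47 is a description.

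**Figure D3:**
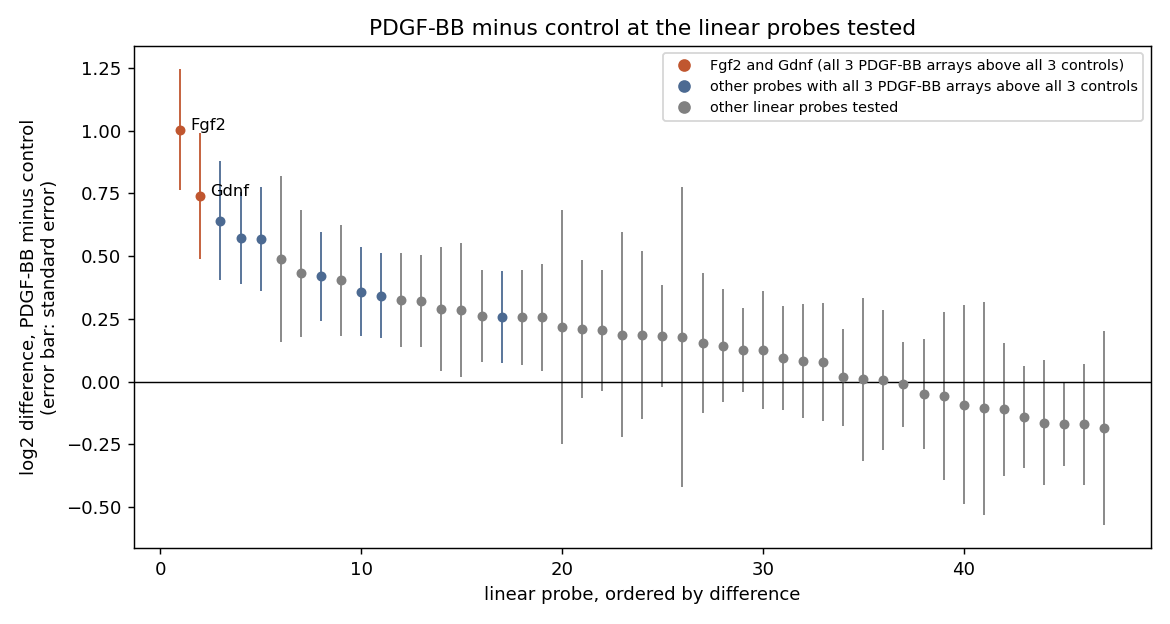
Log2 difference, PDGF-BB minus control, with its standard error, at the 47 linear probes tested, ordered by size, with Fgf2 and Gdnf in orange, 7 more probes without overlap and with PDGF-BB higher in blue and the rest in grey. Fgf2 at 1.00 and Gdnf at 0.74 stand at the left end, and 36 of the 47 points lie above 0.

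The probes whose pattern over the 6 arrays was most like each member were found by the root mean square difference of log2 levels, each probe centred on its own mean, among the linear probes with a gene symbol. The 2 members were nearest to each other, at 0.26, against an own spread of 0.57 for Fgf2 and 0.47 for Gdnf. Next to Fgf2 came Sdha, a subunit of succinate dehydrogenase, at 0.38, Magoh, a core protein of the exon junction complex, at 0.39, and Hsp90ab1, a cytosolic chaperone, at 0.41. Next to Gdnf came Ndfip1, which recruits Nedd4-type ubiquitin ligases, at 0.31, Magoh at 0.34, and Pdk3, a pyruvate dehydrogenase kinase, at 0.34. Of these 5 genes only Sdha had groups without overlap, at 1.17, 0.85 and 0.96 in the controls and 1.33, 1.51 and 1.40 in the PDGF-BB arrays. For Magoh control 1, at -3.66, exceeded PDGF-BB 2, at -3.83. For Ndfip1 control 3 and PDGF-BB 3 both read -0.96. Control 1 read 4.61 for Hsp90ab1, above PDGF-BB 1 at 4.39, and -2.20 for Pdk3, above PDGF-BB 3 at -2.63. Both members were picked for a higher signal on the PDGF-BB arrays, so their nearness to each other was favoured by the choice. With 26 other candidates and 6 arrays, likeness of this kind is a description.

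The groups overlapped in 1 setting for each gene, without scaling for Gdnf and with normexp background correction for Fgf2. Without scaling between arrays the mean differences were almost the same, at 1.00 for Fgf2 and 0.74 for Gdnf, but the Gdnf groups overlapped by 0.14, and Fgf2 was the only 1 of the 47 linear probes whose PDGF-BB arrays all stayed above the controls. With normexp background correction, which adds an offset of 50 to every signal, Fgf2 read -1.29, -1.40 and -1.45 on control arrays 1 to 3 and -1.47, -1.29 and -1.04 on PDGF-BB arrays 1 to 3. The groups then overlapped, PDGF-BB 1 was the lowest of the 6, and the difference was 0.11. With the unsubtracted median signal the Fgf2 difference was 0.28, and the groups stayed apart by 0.07. With the negative control median subtracted instead the Fgf2 difference was 1.03, and the gap was 0.39. For Gdnf these 3 settings gave 0.31, 0.50 and 0.75, with no overlap in any of them.

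Place on the slide was partly shared with the groups. The array positions in the file headers put control 1 and all 3 PDGF-BB arrays in one line and controls 2 and 3 in another, with a single scan time for all. Within the first line, against control 1 alone, the difference was 0.61 for Fgf2 (SE 0.27) and 0.60 for Gdnf (SE 0.38), where the lone control is assumed to vary like the other group. On the scaled level control 1 was the highest of the 3 controls for both genes. Before scaling Gdnf was higher on control 3, at 26.0 against 23.9 on control 1. In the second line no comparison was possible, since it holds controls only.

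**Figure D4:**
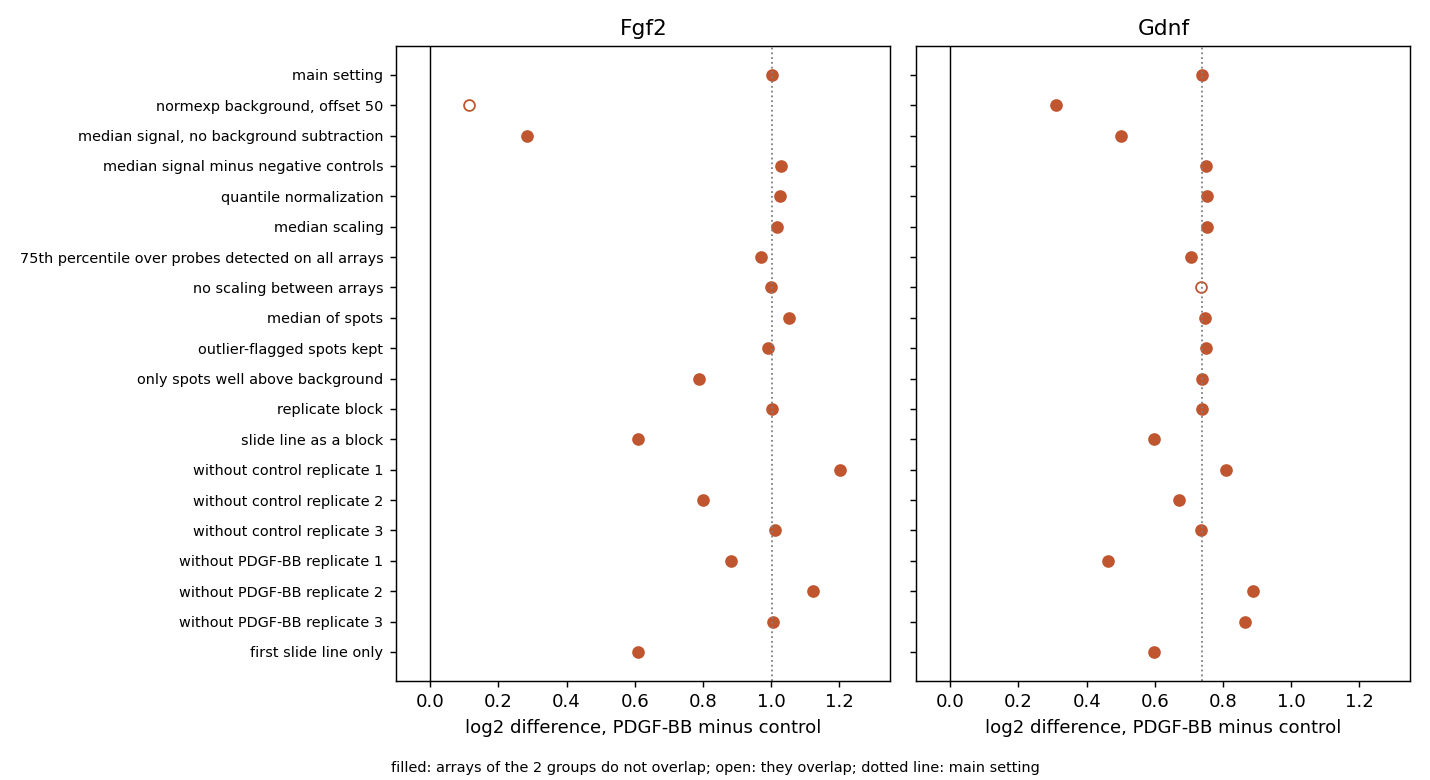
Log2 difference, PDGF-BB minus control, of Fgf2 (left) and Gdnf (right) under the main setting and each alternative, filled where the arrays of the groups did not overlap and open where they did. Each point lies above 0. Fgf2 runs from 0.11 with normexp to 1.20 without control 1, and Gdnf from 0.31 with normexp to 0.89 without PDGF-BB 2. Given the main setting, points that leave out an array, add a block or use the first line alone could not be open or fall below 0.

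No other listed gene of these pathways had a named linear probe. Only 39 of the 82 linear probes were matched to a symbol, and what the others measure was not checked. Of 20 FGF pathway genes listed, from ligands and receptors to the feedback regulators Spry1 and Dusp6, Fgf2 was the only 1 with a named linear probe, and of 11 GDNF pathway genes, among them the receptors Gfra1 and Ret, Gdnf was the only 1. None of the 14 PDGF pathway and early target genes and none of 16 other growth factor genes had one. The same held for the 8 smooth muscle markers listed, such as Acta2 and Myh11, the 5 of synthetic smooth muscle, the 5 fibroblast, 5 endothelial and 4 macrophage markers, so the labelled cell type was not checked, and the part of cell composition in these values was not tested. In bulk RNA, more cells expressing a gene and more RNA per cell cannot be told apart.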

How the data were processed

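Spot intensity was measured on 6 Agilent arrays. Per the file headers, Agilent Feature Extraction 11.0.1.1 made the authors' files. The deposited processed intensity has the background of its own array removed by that software, per the file headers, with no scaling across arrays; other columns are flags and spot positions. The submitters' processing notes also name limma, with no step given. The headers name the rn4 build, and no coordinates of it were used. The authors' table of circRNA values was not used.

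Probe levels were log2 processed intensity minus log2 of the array's 75th percentile over non-control probes, with outlier spots left out. Probes well above background on at least 3 arrays were fitted with limma 3.58.1 (lmFit and eBayes, R 4.3.3). The fit had no block for the replicate number, and p-values were adjusted by Benjamini-Hochberg over the whole set; standard errors of the members come from this fit. The fit was tested on simulated data. Symbols came from the RefSeq table of GRCr8, matched without versions for 39 of 82 linear probes. The upstream windows of both genes are RefSeq's (GRCr8).

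The members and lists were chosen with earlier results of these data known. Genes named for likeness are the 3 nearest other linear probes with a symbol, by root mean square difference. Alternatives covered background, scaling, spot summary, detection, blocks and leaving out each array; normexp used the median spot signal. The number of arrays limits the precision.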

Additional observations from a re-analysis of the deposited data

How the results depend on the processing

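Fgf2 and Gdnf stayed higher in PDGF-BB cells in all 19 alternatives run for their difference. Since the groups did not overlap in the main setting, many of these could not reverse that sign. This holds for leaving out an array, for the blocks and for the first line alone. The slide line block and the first line alone also rest on the same comparison. The Fgf2 difference of 1.00 became 0.11 with normexp, 0.28 with the unsubtracted median signal and 0.61 with the slide line as a block or the first line alone, the last of these chosen after seeing the data. The Gdnf difference of 0.74 became 0.31 with normexp, 0.50 with the unsubtracted median signal and 0.60 with the slide line as a block or the first line alone. Normexp's offset and an unsubtracted background add to every signal, which weighs most at dim probes. The order of the arrays changed too: for Fgf2, PDGF-BB 1 was the highest array in the main setting, at -3.06, and the lowest with normexp, at -1.47. What made the differences smaller in these settings or with the slide line was not tested. Leaving out 1 array gave 0.80 to 1.20 for Fgf2 and 0.46 to 0.89 for Gdnf, the lowest without control 2 and without PDGF-BB 1. The count of linear probes with all PDGF-BB arrays above all controls, 9 in the main setting, was 1 without scaling. With 1 array left out it was 9 to 16, the highest without control 1 (15 without PDGF-BB 3). Leaving out an array can only keep or raise this count, so that range is no sign of stability. It cannot change under a block. No linear probe passed the adjusted threshold under any alternative run for that count, with 1 to 10 at an unadjusted p under 0.05 against 6 in the main setting (1 without scaling or with the slide line as a block, 2 without PDGF-BB 1 or PDGF-BB 2, 10 without control 1), nor when linear probes were fitted alone, also chosen after seeing the data. The excess of Fgf2 spots well above background, 3.33 per array, was 0 when spots were counted by the weaker mark, positive and significant. Leaving out 1 array gave 0.67 to 4.67, the lowest without control 2. With the replicate block the differences were 1.00 and 0.74, with standard errors of 0.21 and 0.23. Deviations of same-numbered arrays correlated at -0.45, -0.37 and 0.21 across probes, so the numbers were not taken to pair the samples. The slide line partly shared with the groups limits the reading of both genes, and for Fgf2 the low signal over background limits it too.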
